A study of Mus musculus with 14 samples.

Results

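Mitochondrial fatty acid oxidation was described through 10 enzymes and carriers of long- and medium-chain acyl groups, chosen by gene symbol: Cpt1a, Slc25a20, Cpt2, Acadvl, Acadl, Acadm, Hadha, Hadhb, Hadh and Acaa2. All 10 symbols were found among the 26683 in the count table, and all 10 were among the 13427 genes with enough counts to test. RNA was sequenced from CD4 T cells of the spleens of 8-month-old female mice. Each of 3 TC and 4 B6 mice gave a library of Tfh cells and a library of Tn cells, paired by the number in their labels. TC mice (B6.NZM-Sle1NZM2410/AegSle2NZM2410/AegSle3NZM2410/Aeg/LmoJ) carry Sle1, Sle2 and Sle3, chromosome intervals of lupus susceptibility, as congenic segments, and B6 mice (C57BL/6J) are their control strain. Tfh cells were gated as CD4+CD44+CD162lo/-PD-1+ and Tn cells as CD4+CD44-, so the 4 groups were TC Tfh (n = 3), B6 Tfh (n = 4), TC Tn (n = 3) and B6 Tn (n = 4), with no treatment in any of them. Each library came from a single mouse, and a gate can hold more than 1 kind of cell. In such bulk libraries, fewer cells of a type and less RNA per cell cannot be told apart.

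Long-chain fatty acids cannot cross the inner mitochondrial membrane as CoA esters. The carnitine shuttle (Cpt1a, Slc25a20 and Cpt2) carries them across, and malonyl-CoA, an intermediate of fatty acid synthesis, inhibits the first of these proteins. Inside, each turn of beta-oxidation passes through an acyl-CoA dehydrogenase, a hydratase, a hydroxyacyl-CoA dehydrogenase and a thiolase, and releases acetyl-CoA for the citric acid cycle. Resting and memory T cells are known to draw energy from this pathway, while effector T cells rely more on glycolysis.

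Depth was similar across the libraries, whose totals ran from 15162309 to 20191558 counts, so that 3 counts corresponded to 0.149 to 0.198 CPM, the usual depth-scaled count. Levels below are CPM scaled by TMM, a factor that was 0.939 to 1.07 per library and corrects each total for its composition. The 5 Tfh markers (Cxcr5, Bcl6, Pdcd1, Il21 and Tox2) summed to 1558 to 1881 CPM in TC Tfh, 1855 to 2118 CPM in B6 Tfh, 47.2 to 57.5 CPM in TC Tn and 46.4 to 66.8 CPM in B6 Tn. The naive T cell markers Ccr7, Lef1 and Igfbp4 summed to 190.1 to 196 CPM in TC Tfh, 198 to 254 CPM in B6 Tfh, 2096 to 2271 CPM in TC Tn and 2943 to 3410 CPM in B6 Tn. Both labels thus had their markers, and several sums also separated the strains inside a gate. The 4 markers of regulatory and follicular regulatory T cells (Foxp3, Ikzf2, Il2ra and Ctla4) summed to 1812 to 2340 CPM in TC Tfh and 1275 to 1573 CPM in B6 Tfh, the naive marker sum was lower in TC in both cell types, and ribosomal protein genes held 2.66 to 2.73% of counts in TC Tfh, 3.26 to 4.27% in B6 Tfh, 5.6 to 6.1% in TC Tn and 7.29 to 8.56% in B6 Tn. The 6 B cell markers summed to 71.2 to 99.2 CPM in TC Tfh, 106 to 116 CPM in B6 Tfh and at most 2.42 CPM in Tn libraries. The 4 CD4 T cell markers (Cd3e, Cd3d, Cd4 and Trac) summed to 4016 to 4207 CPM in TC Tfh and 4390.0 to 5039 CPM in B6 Tfh, and to 3066 to 3151 CPM in TC Tn and 3254 to 3710.0 CPM in B6 Tn. Markers of CD8 T and NK cells summed to 9.68 to 13.4 CPM in TC Tn and 17.6 to 20.2 CPM in B6 Tn. Sums of macrophage and monocyte, neutrophil and platelet markers reached at most 12.3 CPM in any library, and without overlap the sums of macrophage and neutrophil markers were lower and that of platelet markers higher in TC in both cell types.

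The sequence before the start of a gene is printed where it bears on how members are arranged or where they differ in motifs. Promoter windows (250 bases before to 50 after the start) were matched by symbol in RefSeq, on build GRCm38.p6, for 9 of the 10 members, all but Acaa2. Hadha and Hadhb, the 2 subunits of the mitochondrial trifunctional protein, lie head to head on chromosome 5, and only the 85 bases at chr5:30155163-30155247 (plus strand) separate their annotated ends. The stretches before the start of Acadm (chr3:153944644-153944893, minus strand), Slc25a20 (chr9:108661886-108662087, plus strand) and Cpt2 (chr4:107923611-107923839, minus strand) are shown because Acadm alone held the estrogen-related receptor half-site and the other two alone held an ETS motif. Each is read 5′ to 3′ on the strand of its gene and stops at the first annotated exon base, and capitals mark the receptor half-site (AAGGTCA), the ETS motif (CCGGAAG) or the GC box (GGGCGG) on either strand.
Hadha to Hadhb: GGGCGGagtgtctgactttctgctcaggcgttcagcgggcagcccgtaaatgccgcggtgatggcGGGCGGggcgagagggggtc
Acadm: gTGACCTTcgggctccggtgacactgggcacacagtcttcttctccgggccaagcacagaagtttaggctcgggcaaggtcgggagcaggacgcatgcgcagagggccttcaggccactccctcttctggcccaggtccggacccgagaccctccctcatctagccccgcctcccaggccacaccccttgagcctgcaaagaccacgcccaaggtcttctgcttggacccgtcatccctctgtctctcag
Slc25a20: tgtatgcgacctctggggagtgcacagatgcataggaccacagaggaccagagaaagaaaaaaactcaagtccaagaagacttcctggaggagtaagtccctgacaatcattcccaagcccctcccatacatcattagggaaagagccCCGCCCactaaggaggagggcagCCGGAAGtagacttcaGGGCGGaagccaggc
Cpt2: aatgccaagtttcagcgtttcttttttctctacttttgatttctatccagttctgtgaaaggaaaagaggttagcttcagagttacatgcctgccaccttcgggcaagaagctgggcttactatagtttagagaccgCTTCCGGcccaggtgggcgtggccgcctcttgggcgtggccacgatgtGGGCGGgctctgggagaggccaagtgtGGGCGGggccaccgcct
Motifs were searched on both strands of the whole 300-base windows, and 32851 promoters in the RefSeq table served for comparison. AAGGTCA was found in 1 of 9 members, Acadm, where it stands 249 bases before the start on the minus strand of the gene (TGACCTT as printed), and in 4.72% of all promoters. CCGGAAG was found in 2 of 9 members, against 8.86% of all promoters. Slc25a20 held it 79 bases before the RefSeq start, and Cpt2 held it 113 and 13 bases before, the second of these lying beyond the printed stretch. GGGCGG was found in 7 of 9 members and 35.7% of all promoters. The spacer between Hadha and Hadhb held a copy at its Hadha end and another near its Hadhb end. CCAAT was found in Cpt1a and Hadh and in 37.4% of all promoters. A direct repeat of AGGTCA with 1 base between the copies (0.0396% of promoters) and the E-box CACGTG (7.15%) were in none of the 9 windows, which says only that these letters are not there.

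Between the strains, transcripts of 9 of the 10 genes were lower in TC than in B6, in Tfh and in Tn alike. The same 9 were lower in both cell types, whose libraries come from the same mice. The share of all genes called lower in TC in both cell types was not counted, so this joint count has no background here. The fall was largest for the shuttle proteins Cpt1a and Slc25a20 and the thiolase Acaa2, which stood 35.1 to 46.2% lower in TC. It was smallest for Hadha (12.4% in Tfh and 11.8% in Tn), and Acadm was the single member with no call in either cell type. At an adjusted p below 0.05 in edgeR's quasi-likelihood test, 25.9% of all genes tested were lower in TC Tfh than in B6 Tfh and 26.1% were lower in TC Tn than in B6 Tn. No member was called higher in Tfh (24.7% of all genes) or in Tn (25.8%) by edgeR or DESeq2, and none was by edgeR before adjustment. The median log2 fold change of the 10 was -0.36 in Tfh and -0.48 in Tn, against -0.02 and -0.01 for all genes tested. Libraries of the strains did not overlap for 9 of 10 members in Tfh (25.9% of all genes lay lower without overlap) and for 8 of 10 in Tn (28.1%), where Cpt2 was the further exception. The higher regulatory and lower B cell marker sums in TC Tfh and the lower CD8 T and NK sum in TC Tn moved with these differences. So did, in TC in both cell types, the lower naive, CD4 T, macrophage and neutrophil marker sums, the lower ribosomal share and the higher platelet sum. The part of these sums in the strain differences was not tested.

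**Figure D1:**
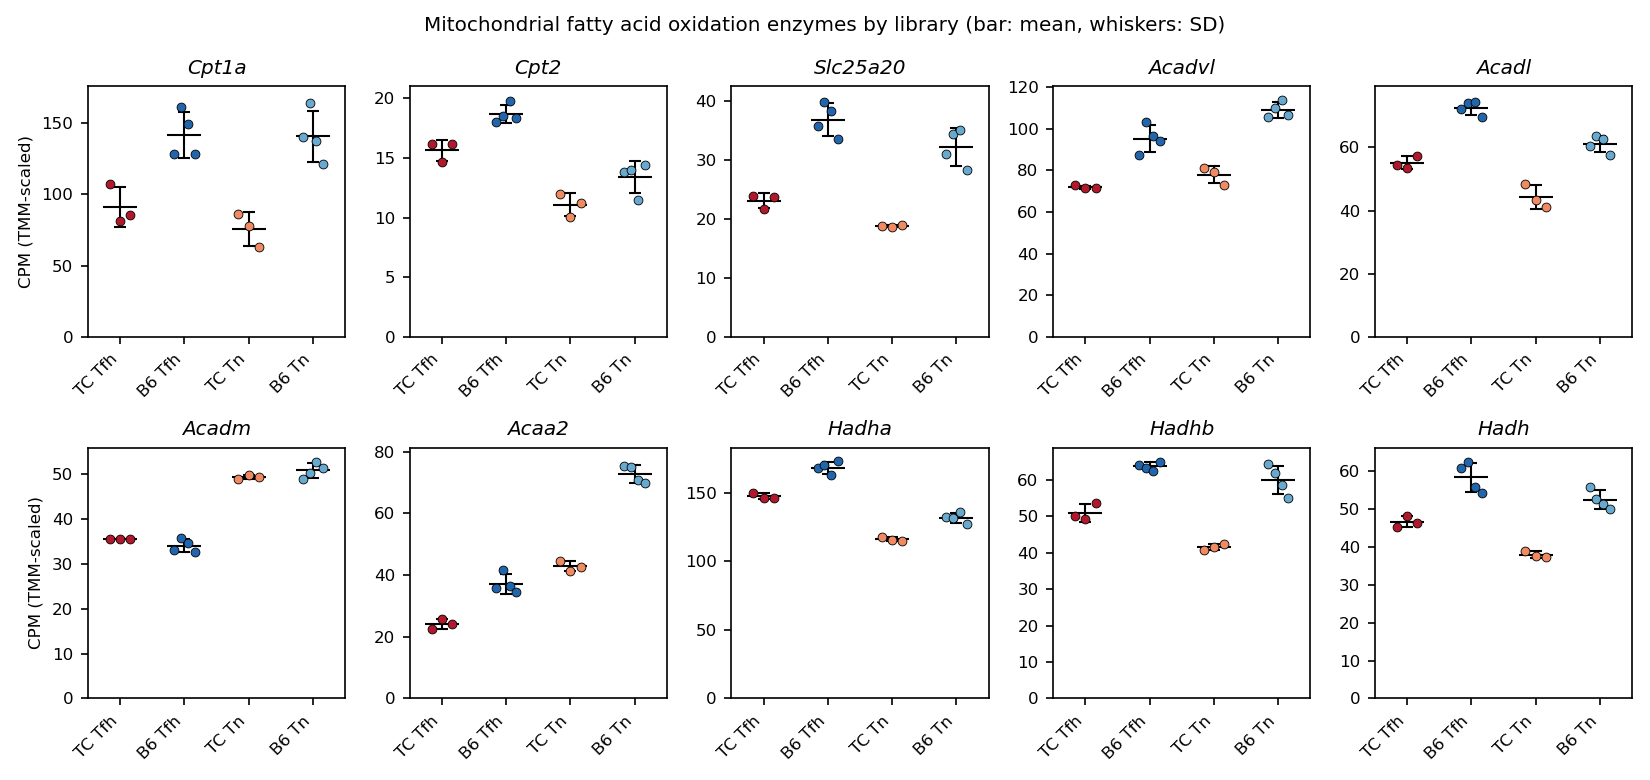
TMM-scaled CPM of each of the 10 genes in every library, with 1 point per mouse, a horizontal bar at the group mean and whiskers of 1 SD (n = 3 TC and 4 B6 mice per cell type), on axes that start at 0. TC points lie below B6 points in both cell types for all genes but Acadm, where they overlap, and Cpt2 in Tn, where a single B6 library reaches into the TC range.

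Cpt1a and Slc25a20 of the carnitine shuttle were, with Acaa2, the members with the widest strain differences. Cpt2, also of the shuttle, differed less than any other called member but Hadha. Cpt1a (chr19:3322334-3385733, plus strand) encodes the carnitine palmitoyltransferase of the outer membrane, whose activity sets the entry of long-chain acyl groups. It had 107, 80.9 and 85.0 CPM in TC Tfh, against 127.8, 161, 149 and 127.9 CPM in B6 Tfh. In Tn it had 85.7, 77.9 and 62.9 CPM in TC, against 139.7, 164, 137 and 121 CPM in B6. Every TC library lay below every B6 library of its cell type, although Cpt1a varied more between mice of a group than any other member (coefficient of variation 11.5 to 15.4%). The log2 fold change was -0.64 in Tfh (95% interval -0.93 to -0.34, adjusted p 0.00164) and -0.89 in Tn (-1.19 to -0.60, adjusted p 0.000113).

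Slc25a20 (chr9:108662088-108684641, plus strand) encodes the carnitine/acylcarnitine translocase of the inner membrane. It had 23.9, 21.7 and 23.7 CPM in TC Tfh, against 35.7, 39.8, 38.2 and 33.5 CPM in B6 Tfh, and 18.8, 18.7 and 18.9 CPM in TC Tn, against 31.0, 34.5, 35.0 and 28.3 CPM in B6 Tn. The TC libraries were nearly level with one another in Tn, and the gap between the strains exceeded the spread within each. With 294 to 340 counts per TC Tn library, counting noise alone would spread them more, so this closeness is not read further. It fell by 0.67 on the log2 scale in TC Tfh (adjusted p 5.01e-06) and by 0.77 in TC Tn (adjusted p 1.07e-06).

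Cpt2 (chr4:107903981-107923610, minus strand), which re-forms acyl-CoA at the inner membrane, was the least abundant and the least certain of the 3. It had 16.2, 14.7 and 16.2 CPM in TC Tfh, against 18.02, 18.5, 19.8 and 18.4 CPM in B6 Tfh. In Tn it had 12.0, 10.04 and 11.2 CPM in TC, against 13.8, 13.99, 11.5 and 14.4 CPM in B6, so that B6 Tn mouse 3 fell inside the TC range. The log2 fold change was -0.25 in Tfh (adjusted p 0.0223) and -0.27 in Tn (adjusted p 0.0227). Its call in Tfh was lost without B6 Tfh mouse 3 (adjusted p 0.0781), TC Tfh mouse 1 (0.052) or TC Tfh mouse 2 (0.122), and its call in Tn was lost without B6 Tn mouse 2 (0.0538), B6 Tn mouse 4 (0.059) or TC Tn mouse 2 (0.114), all in edgeR.

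The 3 acyl-CoA dehydrogenases, which take the first step of each turn for chains of different length, did not move together between the strains. Acadvl, the very-long-chain enzyme (chr11:70010183-70015411, minus strand), had 72.7, 71.3 and 71.4 CPM in TC Tfh, against 87.5, 103, 96.5 and 94.0 CPM in B6 Tfh, and 80.9, 79.4 and 73.2 CPM in TC Tn, against 105, 110.0, 114 and 106 CPM in B6 Tn. Acadl, the long-chain enzyme (chr1:66830839-66863277, minus strand), had 54.3, 53.5 and 57.4 CPM in TC Tfh, against 72.0, 74.0, 74.3 and 69.7 CPM in B6 Tfh, and 48.4, 43.4 and 41.1 CPM in TC Tn, against 60.4, 63.4, 62.5 and 57.6 CPM in B6 Tn. For both genes the TC libraries lay below all B6 libraries of their cell type. Acadvl fell by 0.41 in TC Tfh (adjusted p 1.91e-05) and by 0.48 in TC Tn (adjusted p 2.22e-06), and Acadl by 0.40 (3.07e-05) and 0.46 (6.33e-06), on the log2 scale.

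Acadm, the medium-chain enzyme (chr3:153922357-153944632, minus strand), had 35.6, 35.5 and 35.6 CPM in TC Tfh, against 33.1, 35.9, 34.6 and 32.8 CPM in B6 Tfh, and 48.9, 49.9 and 49.4 CPM in TC Tn, against 48.9, 50.4, 52.8 and 51.5 CPM in B6 Tn. The strains overlapped in both cell types. Its log2 fold change was 0.06 in Tfh (95% interval -0.04 to 0.17, adjusted p 0.316) and -0.04 in Tn (-0.15 to 0.06, adjusted p 0.483). These intervals leave out decreases as large as those estimated for the other 2 dehydrogenases. Reads of Acadvl and of Dvl2 cannot be told apart over 1151 exon bases that they share on opposite strands, since the strand setting of the counting is not given in the sources used here. Dvl2, a Wnt signalling adaptor, stood at 46.5 ± 1.4 CPM in TC Tfh and 46.6 ± 1.4 CPM in B6 Tfh, and at 51.2 ± 2.6 CPM in TC Tn and 51.0 ± 1.6 CPM in B6 Tn.

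The trifunctional protein carries the later steps for long chains. Hadha (chr5:30118304-30155162, minus strand), whose subunit holds the hydratase and the long-chain hydroxyacyl-CoA dehydrogenase, had 149.7, 146 and 146 CPM in TC Tfh, against 168, 169.8, 163 and 173 CPM in B6 Tfh, and 118, 116 and 115 CPM in TC Tn, against 132, 131, 136 and 127 CPM in B6 Tn. Hadhb (chr5:30155248-30184593, plus strand), whose subunit is the long-chain thiolase, had 49.9, 49.2 and 53.6 CPM in TC Tfh, against 64.1, 63.2, 62.3 and 64.9 CPM in B6 Tfh, and 40.7, 41.4 and 42.5 CPM in TC Tn, against 64.2, 61.7, 58.6 and 55.1 CPM in B6 Tn. Neither gene overlapped between the strains in either cell type. Hadha fell by 0.19 in TC Tfh (adjusted p 0.000918) and by 0.18 in TC Tn (adjusted p 0.00143) on the log2 scale, and Hadhb by 0.32 (0.000142) and 0.53 (9.45e-07). Although the 2 genes start 85 bases apart and their products form 1 complex, the estimated fall was larger for Hadhb than for Hadha, a difference that was not tested. Hadhb counts are uncertain because the transcript of the pseudogene Gm13910 shares 1428 aligned bases with it at 99.8% identity, and that of Gm9108 shares 1426 at 97.6%. The table gave Gm13910 5 to 21 counts per library, against 652 to 1267 for Hadhb, and no count of Gm9108 was used here.

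Hadh and Acaa2 act on the shorter intermediates. Hadh (chr3:131233419-131272101, minus strand), the hydroxyacyl-CoA dehydrogenase of short and medium chains, had 45.3, 48.1 and 46.3 CPM in TC Tfh, against 60.8, 62.3, 55.6 and 54.2 CPM in B6 Tfh, and 38.9, 37.4 and 37.2 CPM in TC Tn, against 55.7, 52.7, 51.3 and 49.95 CPM in B6 Tn. Acaa2 (chr18:74779197-74806208, plus strand), the mitochondrial thiolase of medium chains, had 22.4, 25.6 and 24.2 CPM in TC Tfh, against 35.9, 41.7, 36.4 and 34.4 CPM in B6 Tfh, and 44.6, 41.3 and 42.6 CPM in TC Tn, against 75.3, 75.1, 70.8 and 69.9 CPM in B6 Tn. The strains were apart for both genes in both cell types. Hadh fell by 0.32 in TC Tfh (adjusted p 0.00023) and by 0.47 in TC Tn (adjusted p 6.2e-06) on the log2 scale, and Acaa2 by 0.62 (2.99e-06) and 0.76 (9.71e-08).

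**Figure D2:**
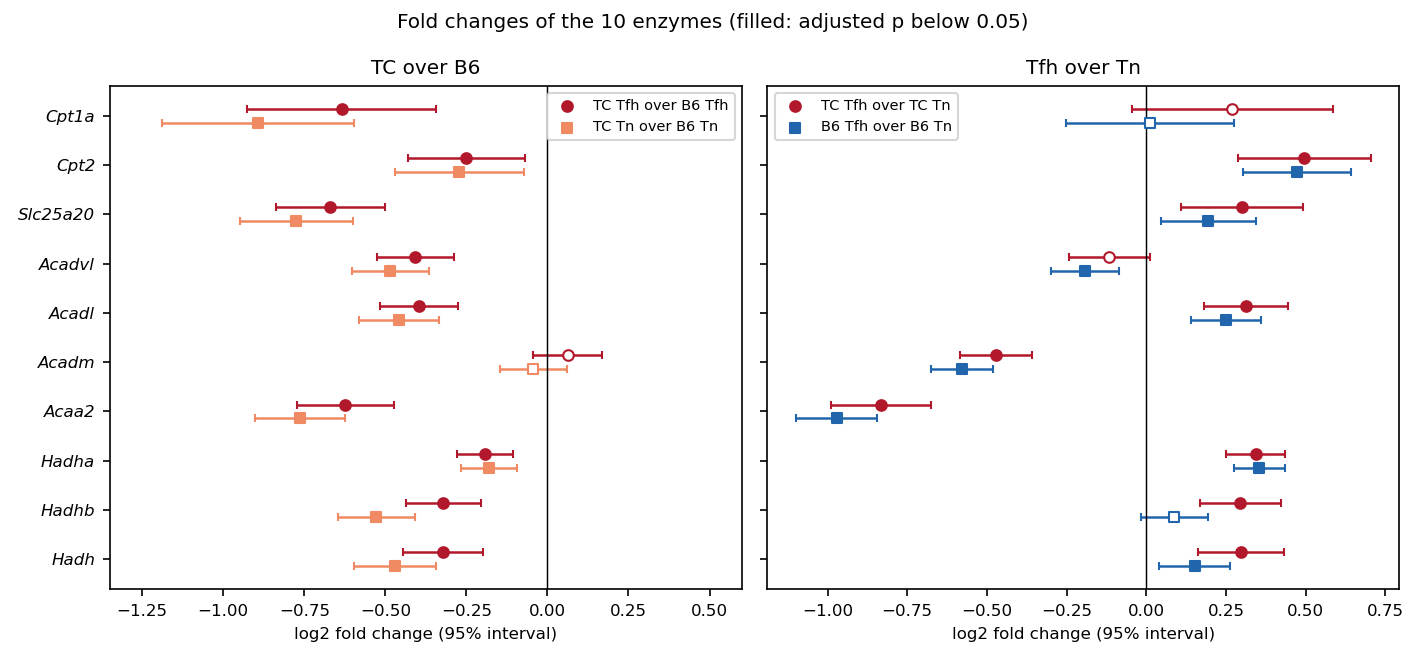
Log2 fold changes of the 10 genes with 95% intervals from edgeR, TC over B6 on the left and Tfh over Tn on the right, with filled symbols for an adjusted p below 0.05. On the left the intervals of all genes but Acadm lie below 0 in both cell types, and on the right Acaa2 and Acadm lie farthest below 0 in both strains.

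Sle1, Sle2 and Sle3 map to chromosomes 1, 4 and 7, of which chromosome 1 carries Acadl, chromosome 4 carries Cpt2 and chromosome 7 carries no member. Interval bounds were not used here, so a place inside an interval was not checked for either gene. As a plain sum, the 10 genes reached 546.6 to 576.9 CPM in TC Tfh and 702.5 to 768.9 CPM in B6 Tfh, and 494 to 537 CPM in TC Tn and 681 to 757 CPM in B6 Tn. The sums did not overlap between the strains and are given as a description.

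Between the cell types the 10 genes differed in direction. In both strains Cpt2, Slc25a20, Acadl, Hadha and Hadh were higher in Tfh than in Tn, while Acadm and Acaa2 were lower. In TC, 6 of 10 members were higher in Tfh (33.8% of all genes tested) and 2 were lower (32.4%), and in B6, 5 were higher (37.1%) and 3 were lower (33.4%). Most genes differed between the cell types (66.2% of those tested in TC and 70.5% in B6). In each strain 2 members were not called, so the share called in either direction stands near the background. By direction, the counts higher in Tfh lay above their background shares and the counts lower in Tfh below them, which was not tested. The count of 5 in B6 was 3 without B6 Tn mouse 4. The median log2 fold change of the 10 was 0.30 in TC and 0.12 in B6, against -0.01 and 0.02 for all genes tested. With library totals in place of TMM, which raised the median of all genes in Tfh over Tn by 0.109 in TC and 0.133 in B6, it was 0.41 in TC and 0.25 in B6. In TC, 6 members lay higher and 3 lower in Tfh without overlap (35.7 and 35.6% of all genes), and in B6, 3 lay higher and 3 lower (33.8 and 30.1%). The cycling markers Mki67, Top2a and Cdk1 summed to 68.7 to 80.2 CPM in TC Tfh and 8.51 to 13.2 CPM in TC Tn, and to 70.3 to 96.1 CPM in B6 Tfh and 12.2 to 14.9 CPM in B6 Tn. Regulatory T cell markers summed to 80.3 to 116 CPM in TC Tn and 82.8 to 124 CPM in B6 Tn, and plasma cell markers to 26.6 to 40.5 CPM in TC Tfh and 10.52 to 16.02 CPM in TC Tn, and to 31.2 to 44.4 CPM in B6 Tfh and 12.1 to 14.3 CPM in B6 Tn. The higher cycling, regulatory, B cell, plasma cell and CD4 T marker sums and the lower ribosomal share in Tfh moved with the cell type differences, and their part in them was not tested.

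The fall of Acaa2 was the largest change of any member. It averaged 24.1 ± 1.6 CPM in TC Tfh and 42.9 ± 1.7 CPM in TC Tn, and 37.1 ± 3.2 CPM in B6 Tfh and 72.8 ± 2.8 CPM in B6 Tn (SD). It fell by 0.83 in TC (adjusted p 2.48e-08) and by 0.97 in B6 (adjusted p 1.16e-10) on the log2 scale. Acadm averaged 35.6 ± 0.05 CPM in TC Tfh and 49.4 ± 0.50 CPM in TC Tn, and 34.1 ± 1.4 CPM in B6 Tfh and 50.9 ± 1.7 CPM in B6 Tn. It fell by 0.47 in TC (adjusted p 4.81e-07) and by 0.58 in B6 (adjusted p 3.37e-09). For both medium-chain genes no Tfh library reached the level of a Tn library of its strain. Acadvl fell by 0.19 in B6 Tfh (adjusted p 0.00252), a call that was lost when library totals replaced TMM (adjusted p 0.263). In TC its log2 fold change was -0.12 (adjusted p 0.0987), with a call only without TC Tn mouse 4 (adjusted p 0.0402).

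Among the genes higher in Tfh, Cpt2 rose most, by 0.49 in TC (adjusted p 0.00028) and 0.47 in B6 (adjusted p 4.57e-05) on the log2 scale. Hadha rose by 0.34 in TC (adjusted p 2.3e-06) and 0.35 in B6 (adjusted p 1.78e-07), and Acadl by 0.31 (0.000277) and 0.25 (0.000358). Slc25a20 rose by 0.30 in TC (adjusted p 0.00774) and 0.19 in B6 (adjusted p 0.0215), and Hadh by 0.30 (0.000527) and 0.15 (0.017). The B6 calls of the last 2 were the less secure. That of Slc25a20 was lost without B6 Tn mouse 1 (adjusted p 0.0566) or mouse 4 (0.0893), and that of Hadh without B6 Tn mouse 4 (0.0566).

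Hadhb rose in TC Tfh, by 0.29 (adjusted p 0.000336), and its log2 fold change in B6 was 0.09 (adjusted p 0.128). The B6 change was called without B6 Tn mouse 1 (adjusted p 0.0424) and with library totals (adjusted p 0.00136). Cpt1a, the regulated entry step, was not called in either strain. It averaged 91.0 ± 14 CPM in TC Tfh and 75.5 ± 11.6 CPM in TC Tn (log2 fold change 0.27, adjusted p 0.119), and 141 ± 16.3 CPM in B6 Tfh and 140.3 ± 17.7 CPM in B6 Tn (0.01, adjusted p 0.943). With mouse as a replicate block in a separate edgeR fit, the TC change was 0.27 with an adjusted p of 0.0029 and was called. It was also called with library totals (adjusted p 0.0273) and without TC Tfh mouse 2 (0.0475).

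With Tfh and Tn libraries of the same number taken as from the same mouse, each gene could be followed within a mouse. Cpt2, Slc25a20, Acadl, Hadha and Hadh were higher in Tfh in 7 of 7 mice, and Acadvl, Acadm and Acaa2 were lower in 7 of 7. Hadhb was higher in 6 of 7, and in the remaining B6 mouse the log2 ratio was -0.002. Cpt1a was higher in 5 of 7, with all 3 TC mice and 2 of 4 B6 mice among them. The log2 ratio of Acaa2 ran from -0.99 to -0.69 in TC mice and from -1.07 to -0.85 in B6 mice, and that of Hadha from 0.34 to 0.35 in TC mice and from 0.26 to 0.44 in B6 mice. Most genes differed between the cell types, and the share of all genes with the same direction in 7 of 7 mice was not counted. The ratios use TMM-scaled CPM. With library totals the log2 fold change of Acadvl was -0.007 in TC and -0.06 in B6, so its 7 of 7 rests on the scaling.

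**Figure D3:**
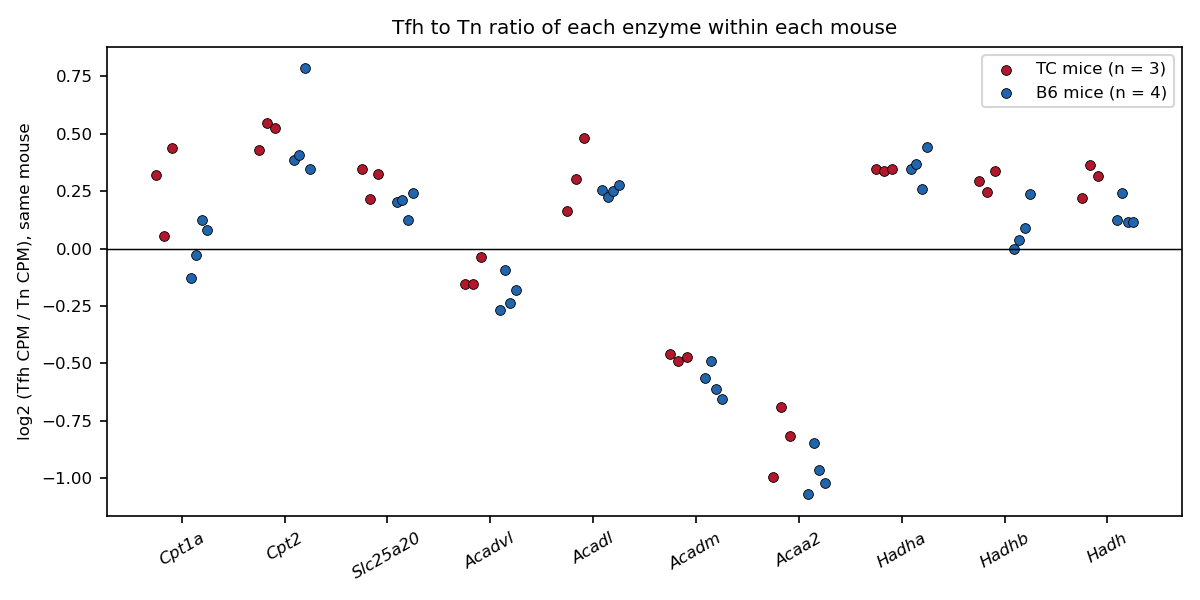
Log2 ratio of Tfh to Tn TMM-scaled CPM within each mouse for the 10 genes, TC mice (n = 3) left of B6 mice (n = 4). Acadvl, Acadm and Acaa2 lie below 0 in all 7 mice, Cpt2, Slc25a20, Acadl, Hadha and Hadh lie above it in all 7, and Cpt1a falls on both sides.

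Whether the cell type difference depended on strain was tested as an interaction, positive where the Tfh to Tn ratio was higher in TC. None of the 10 genes was called by edgeR, with DESeq2 or with the replicate block, against 2.1% of all genes tested by edgeR (0.864% higher and 1.24% lower). At an unadjusted p below 0.05 there was 1, Hadhb, with an interaction of 0.21 on the log2 scale (95% interval 0.04 to 0.37, p 0.0168 and adjusted p 0.22 in edgeR). The other 9 estimates lay between -0.01 and 0.26. The highest was that of Cpt1a, whose interval of -0.15 to 0.67 left room for a strain dependence that was not detectable with these libraries.

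The balance between steps was compared after dividing CPM by the length of the longest principal transcript in kb, and these levels and ratios carry no test. Those with Acadvl are uncertain because of the exon bases shared with Dvl2. Those with Hadhb are uncertain because of its near-identical pseudogenes. Hadha was the most abundant member in TC Tfh at 36.7 ± 0.5 CPM per kb, ahead of Acadvl in 3 of 3 libraries. Acadvl led in B6 Tfh (43.9 ± 3.0 CPM per kb), TC Tn (35.9 ± 1.9) and B6 Tn (50.2 ± 1.7), although it overlapped Hadha in B6 Tfh and Acaa2 in B6 Tn. Cpt2 was the lowest in all 4 groups, at 6.60 ± 0.37 CPM per kb in TC Tfh, 7.87 ± 0.32 in B6 Tfh, 4.68 ± 0.42 in TC Tn and 5.66 ± 0.56 in B6 Tn. Acaa2 changed its place most. It ranked 8 of 10 in TC Tfh (15.9 ± 1.1 CPM per kb) and 7 of 10 in B6 Tfh (24.5 ± 2.1), but 3 of 10 in TC Tn (28.3 ± 1.1) and 2 of 10 in B6 Tn (48.0 ± 1.9). In the middle of the order neighbours often overlapped, as Hadh and Hadhb did in TC Tfh, B6 Tfh and B6 Tn.

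Among the acyl-CoA dehydrogenases, Acadm made up 21.95 ± 0.26% of the summed level per kb in TC Tfh and 16.9 ± 0.2% in B6 Tfh, and 29.05 ± 1.4% in TC Tn and 23.3 ± 0.6% in B6 Tn. Its ratio to Acadl was 0.61 ± 0.02 in TC Tfh and 0.44 ± 0.01 in B6 Tfh, and 1.05 ± 0.09 in TC Tn and 0.78 ± 0.04 in B6 Tn. The medium-chain share was thus greater in TC than in B6 and greater in Tn than in Tfh, with no overlap between groups so compared. The ratio of Acadl to Acadvl, by contrast, was 0.87 ± 0.04 in TC Tfh and 0.86 ± 0.05 in B6 Tfh, and 0.64 ± 0.03 in TC Tn and 0.63 ± 0.02 in B6 Tn, so that the strains overlapped and the cell types did not.

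The 2 trifunctional protein subunits were closest to an equal level in B6 Tn. Hadha over Hadhb was 1.48 ± 0.08 in TC Tfh and 1.35 ± 0.02 in B6 Tfh, and 1.43 ± 0.05 in TC Tn and 1.12 ± 0.07 in B6 Tn. Of the thiolases, Hadhb exceeded Acaa2 in Tfh (ratio 1.57 ± 0.13 in TC and 1.28 ± 0.12 in B6), and Acaa2 exceeded Hadhb in Tn (0.72 ± 0.04 in TC and 0.61 ± 0.02 in B6). Cpt1a over Cpt2 was 3.19 ± 0.40 in TC Tfh and 4.16 ± 0.43 in B6 Tfh, and 3.75 ± 0.61 in TC Tn and 5.79 ± 0.91 in B6 Tn, and it did not overlap between the strains in either cell type.

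**Figure D4:**
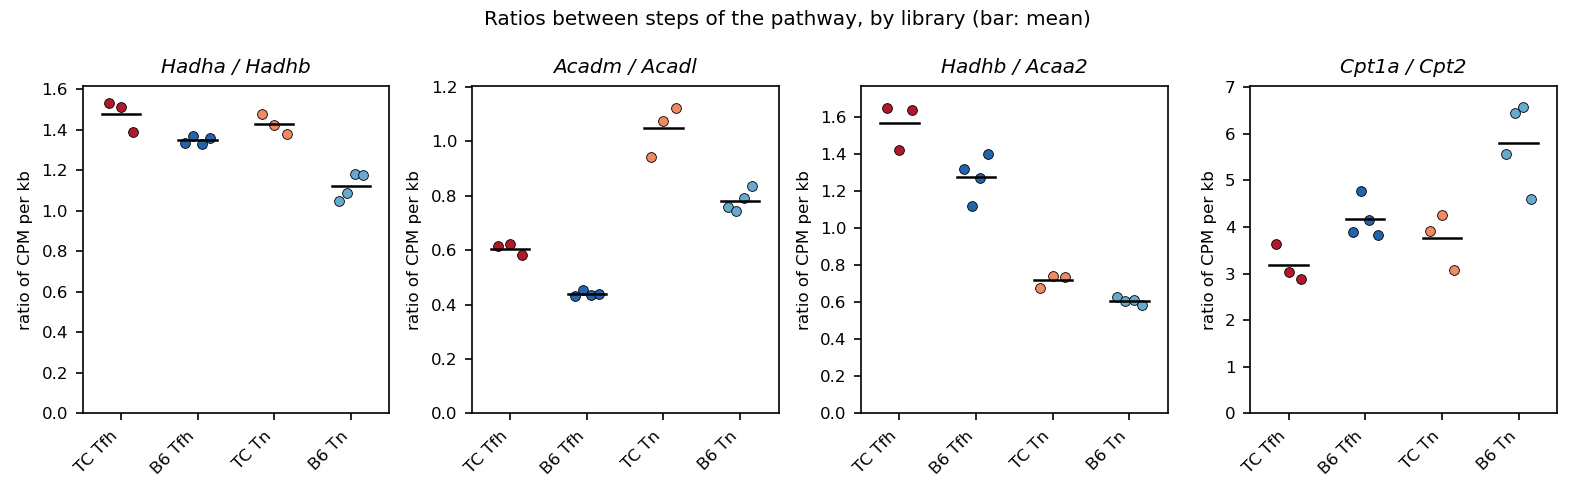
Ratios of CPM per kb between pairs of members in each library (1 point per mouse, bar at the mean), on axes that start at 0. Acadm over Acadl and Hadhb over Acaa2 separate Tfh from Tn, and the Hadha to Hadhb ratio is lowest in B6 Tn, at 1.05 to 1.18.

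The wider pathway was described through 4 lists. Of 17 genes listed as other mitochondrial oxidation, all tested, 2 were higher and 8 lower in TC Tfh than in B6 Tfh. Of all genes, 24.7% were higher and 25.9% lower there. In TC Tn, 1 was higher and 5 were lower than in B6 Tn (25.8 and 26.1% of all genes), so that the count of 5 stands close to the background. The 5 lower in both were Acads, the short-chain dehydrogenase; Eci1, an enoyl-CoA isomerase; Hsd17b10, a hydroxyacyl-CoA dehydrogenase; Acat1, which splits acetoacetyl-CoA; and Etfa, a subunit of the flavoprotein that takes electrons from the acyl-CoA dehydrogenases. Etfa stood at 36.9 ± 2.1 CPM in TC Tfh and 48.3 ± 1.5 CPM in B6 Tfh, and fell by 0.39 on the log2 scale in TC Tfh (adjusted p 0.000119) and by 0.52 in TC Tn (adjusted p 4.62e-06). Acat1 fell by 0.45 in TC Tfh (adjusted p 9.93e-06) and by 0.44 in TC Tn (adjusted p 5.6e-06). The genes higher in TC were Cpt1c and Acad9 in Tfh and Cpt1b in Tn, the last at only 0.70 ± 0.14 CPM in TC Tn and 0.31 ± 0.16 CPM in B6 Tn.

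Cpt1c, listed here as a paralog of Cpt1a and best known from neurons, was higher in TC Tfh, where Cpt1a was lower. A link between the 2 differences was not tested, and RNA levels do not show whether the product of Cpt1c takes part in mitochondrial oxidation. The position of Cpt1c was not compared with the Sle1, Sle2 and Sle3 intervals. It averaged 58.2 ± 5.7 CPM in TC Tfh and 3.11 ± 1.22 CPM in B6 Tfh, and 0.29 ± 0.24 CPM in TC Tn and 0.07 ± 0.06 CPM in B6 Tn. It rose by 4.23 on the log2 scale in TC Tfh over B6 Tfh (adjusted p 1.79e-13). The level in B6 Tn lay below what 3 counts give in 1 library, and that in TC Tn was near it. The interaction of strain and cell type was 2.28 and was not called (adjusted p 0.511 in edgeR). Decr1, the dienoyl-CoA reductase needed for unsaturated chains, had the widest cell type difference among the genes of this list with at least 5 CPM in every group. It averaged 58.6 ± 8.6 CPM in TC Tfh and 13.1 ± 0.8 CPM in TC Tn, and 53.7 ± 3.5 CPM in B6 Tfh and 10.8 ± 1.7 CPM in B6 Tn, and rose by 2.17 in TC (adjusted p 4.53e-11) and 2.31 in B6 (adjusted p 2.44e-12) on the log2 scale. In this list 9 genes were higher and 4 lower in Tfh in TC, and 8 were higher and 6 lower in B6. Of all genes tested, 33.8% were higher and 32.4% lower in TC, and 37.1 and 33.4% in B6. Those lower in both strains were Acad10, Acad11, Hsd17b10 and Acat1.

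Of 16 genes of fatty acid supply and activation, 12 were tested, and they were mixed. In TC Tfh 2 were higher and 4 lower than in B6 Tfh (24.7 and 25.9% of all genes). In TC Tn 2 were higher and 5 lower than in B6 Tn (25.8 and 26.1%). Acsl5, which activates long chains to acyl-CoA, followed the 9 enzymes, with 148 ± 1.6 CPM in TC Tfh and 192 ± 7.7 CPM in B6 Tfh, and 111 ± 3.4 CPM in TC Tn and 154 ± 5.9 CPM in B6 Tn. It fell by 0.37 in TC Tfh (adjusted p 7.43e-06) and by 0.47 in TC Tn (adjusted p 5.28e-07) on the log2 scale. Lipa, the lysosomal acid lipase, fell by 0.26 in TC Tfh (adjusted p 0.00107) and by 0.37 in TC Tn (adjusted p 3.23e-05). Lower in TC as well were Slc27a1 and Fabp5 in Tfh and Acsl4, Slc27a4 and Pnpla2 in Tn. Higher in TC were Slc22a5, the plasma membrane carnitine carrier, in both cell types (0.26 in Tfh, adjusted p 0.00967, and 0.27 in Tn, adjusted p 0.00608), Acsl3 in Tfh and Mgll in Tn. Mgll stood at only 1.03 ± 0.13 CPM in TC Tn and 0.19 ± 0.06 CPM in B6 Tn, and at 0.06 CPM in Tfh of both strains. Between the cell types, Acsl5, Slc27a1 and Fabp5 were higher in Tfh in both strains, Acsl3, Acsl4, Lipe, Mgll and Lipa were lower in both, and Slc27a4 was also lower in B6.

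Of 12 peroxisomal oxidation genes, 10 were tested. In each cell type 3 were called lower in TC, close to the background (25.9% of all genes in Tfh and 26.1% in Tn). Among all genes, 24.7% were higher in TC Tfh and 25.8% in TC Tn. Hsd17b4, the peroxisomal bifunctional enzyme, stood at 41.9 ± 1.5 CPM in TC Tfh and 56.3 ± 2.2 CPM in B6 Tfh, and at 51.9 ± 2.6 CPM in TC Tn and 74.2 ± 3.8 CPM in B6 Tn. It fell by 0.43 in TC Tfh (adjusted p 1.28e-05) and by 0.51 in TC Tn (adjusted p 1.05e-06) on the log2 scale. Scp2, a sterol carrier with thiolase activity, was called lower in TC in both cell types too. Crot was called lower in TC Tfh and Decr2 in TC Tn, and Acaa1a was called higher in TC Tn. No peroxisomal gene was called higher in TC Tfh by edgeR or DESeq2, 1 was before adjustment, and 1 was with the replicate block, with RLE size factors, with library totals, at a count minimum of 50 or without any 1 of TC Tfh mouse 2, B6 Tfh mice 2 and 4 and B6 Tn mouse 1. In Tfh against Tn, Crot and Decr2 were higher in both strains, Ehhadh, Hsd17b4 and Scp2 were lower in both, and Acaa1a was lower in TC. Of all genes, 33.8% were higher and 32.4% lower in TC, and 37.1 and 33.4% in B6. Scp2 fell most, by 1.045 in TC (adjusted p 2.62e-09) and by 0.87 in B6 (adjusted p 2.16e-09).

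Of 23 regulators listed, 21 were tested. In TC Tfh 4 were higher (24.7% of all genes) and in TC Tn 8 (25.8%). None was called lower in TC Tfh (25.9% of all genes) or TC Tn (26.1%) by edgeR or DESeq2, or by edgeR before adjustment. Ppargc1b, a coactivator of mitochondrial genes, stood at 18.5 ± 2.5 CPM in TC Tfh and 10.6 ± 1.2 CPM in B6 Tfh, and at 21.4 ± 0.9 CPM in TC Tn and 11.04 ± 1.4 CPM in B6 Tn. It rose by 0.81 in TC Tfh (adjusted p 2.23e-05) and by 0.96 in TC Tn (adjusted p 2.55e-06). Stk11, the kinase that activates AMPK, rose by 0.28 (adjusted p 0.000514) and 0.51 (adjusted p 9.99e-07). The deacetylases Sirt1 and Sirt3 were the other 2 called in Tfh, and Sirt1, Sirt3, Ppard, Rxrb, Prkab2 and Ppargc1a completed the 8 in Tn. Ppargc1a stood at only 0.83 ± 0.77 CPM in TC Tn and 0.22 ± 0.16 CPM in B6 Tn. Its libraries overlapped between the strains (adjusted p 0.0424 in edgeR). The count in Tfh is not above the background, and the count of 8 in Tn was 5 with DESeq2 or the replicate block, 4 without TC Tn mouse 1, and 5 without any 1 of TC Tfh mouse 1, TC Tn mice 2 and 4 and B6 Tn mice 1, 3 and 4. In Tfh against Tn, 9 regulators were lower in each strain (32.4% of all genes in TC and 33.4% in B6). They were led by Pprc1 (fell by 0.86 in TC and in B6, adjusted p 2.48e-10 and 2.3e-11) and Prkag1. Rxra, Sirt3 and Pparg were higher in both and Stk11 in B6, against 33.8% of all genes in TC and 37.1% in B6. Pparg averaged only 0.68 CPM in Tfh of both strains, 0 CPM in TC Tn and 0.01 CPM in B6 Tn.

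Some of the small counts in these lists moved with a single library or setting. Without B6 Tn mouse 1, 1 peroxisomal gene was lower in TC Tn in place of 3, and without B6 Tfh mouse 1 or TC Tn mouse 4, 2 of the other mitochondrial genes were lower in TC Tfh than in TC Tn in place of 4. Without TC Tfh mouse 2, 2 peroxisomal genes were lower in TC Tfh than in TC Tn in place of 4. Without TC Tn mouse 1, 1 supply gene was higher in TC Tn in place of 2. The single other mitochondrial gene higher in TC Tn became 2 without TC Tfh mouse 4 or B6 Tn mouse 2, and none without TC Tn mouse 4. No gene of the 4 lists was called for the interaction by edgeR or DESeq2, and 1 regulator was with the replicate block. In edgeR without the block, 2 supply genes, 1 other mitochondrial gene, no peroxisomal gene and 3 regulators had an unadjusted p below 0.05.

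**Figure D5:**
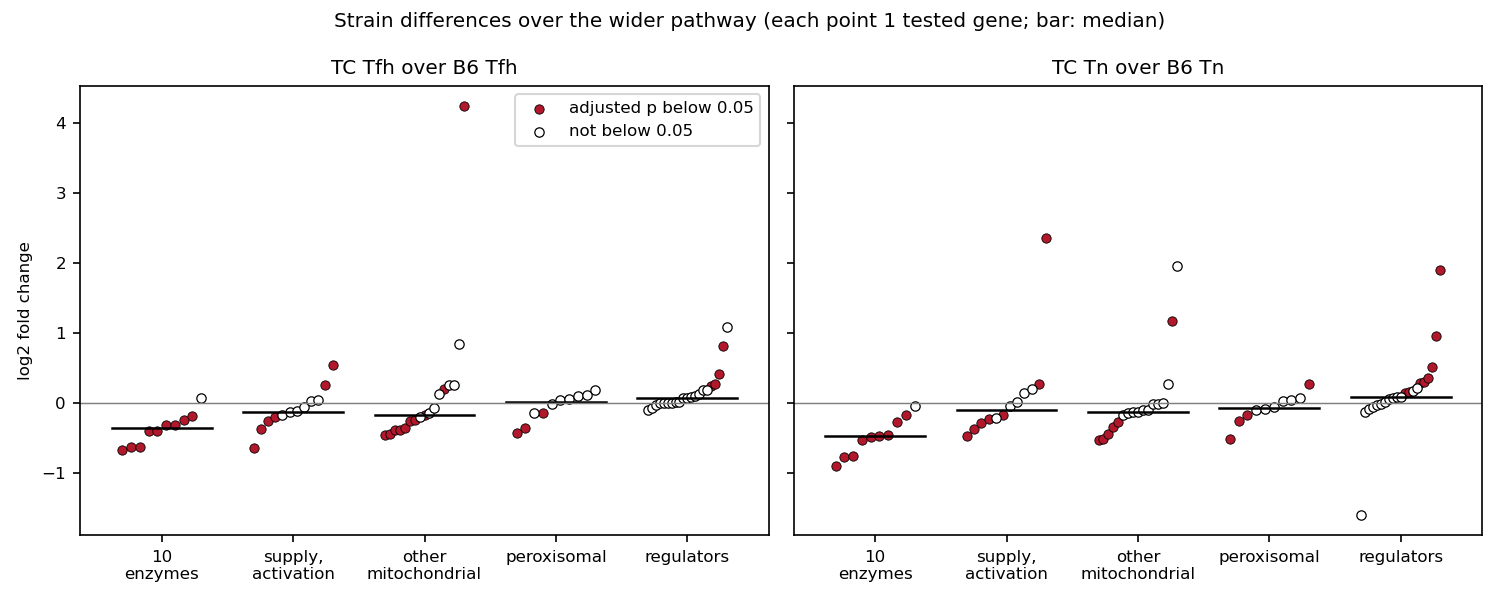
Log2 fold changes of TC over B6 in Tfh (left) and Tn (right) for the 10 enzymes and the 4 wider lists, with 1 point per tested gene, filled for an adjusted p below 0.05, and a bar at the median. The 10 enzymes have medians of -0.36 and -0.48, the regulators 0.07 and 0.08, and the point at 4.23 in Tfh is Cpt1c.

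The genes whose profile over the 14 libraries was nearest to each member, by the root mean square difference of centred log2 CPM, were looked up among all genes tested with a name. Hadha was nearest to Scamp2 (0.031) and Vcp (0.043), Acadvl to Snrpb (0.031) and Ran (0.039), and Acadl to Cops6 (0.039) and Tmem115 (0.048). Acadm was nearest to Gtpbp1 (0.045) and Nop14 (0.048), Hadhb to Atxn10 (0.048) and Golph3l (0.049), and Hadh to Tmed10 (0.055) and Yipf5 (0.057). Larger distances were left for Acaa2, nearest to Bcat2 (0.084) and Eif3e (0.101), Slc25a20, nearest to Spr (0.089) and Pebp1 (0.095), Cpt2, nearest to AW011738 (0.090) and Arf6 (0.095), and Cpt1a, nearest to Aktip (0.135) and Psenen (0.144). Within the 10, the closest pairs were Hadhb with Hadh (0.072) and Acadl with Hadh (0.081), while the member nearest to Acaa2, Acadm, was at 0.402.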

How the data were processed

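The values deposited by the authors are raw read counts per gene symbol and library. The submitters' processing notes name STAR 2.7, DESeq2 and the build mm10. Total RNA of each mouse's spleen cells went into a TruSeq Stranded preparation, per the labels' protocols. How reads were counted, with which annotation and on which strand, is not given in the sources used here, so counts of overlapping and near-identical genes are uncertain. Differences of TC sequence from the B6 genome were not corrected for. Tn samples were taken from their titles and cell type, although their source field says Tfh, and strains from the strain labels, although the protocol speaks of WT and KO mice. No pair of libraries in a group was alike enough to be a duplicate (chi-square per degree of freedom 5.31 to 20.3).

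From these counts, genes past filterByExpr (count minimum 10) were scaled by TMM and fitted in edgeR 4.0.16 (R 4.3.3; robust quasi-likelihood, 4 group means, mouse not in the model). A call is a Benjamini-Hochberg adjusted p below 0.05 over all 13427 genes tested. The 5 comparisons set Tfh against Tn within a strain, TC against B6 within a cell type, and tested the interaction. The p-values rest on the spread between libraries of a group, each from a different mouse. For Tfh against Tn and the interaction they do not use the pairing of libraries by mouse. The members, lists and tests were chosen with earlier results of these data known. Named genes were all 10 members, up to 4 genes per list and comparison with the smallest adjusted p and a mean of at least 5 CPM, and genes behind counts of 5 or fewer, and the 2 nearest profiles of each member. Results for a few listed genes are not reported here, and list counts and sums leave them out. The plasma cell, macrophage, neutrophil, erythroid, platelet, and CD8 T and NK marker lists summed to at most 44.4 CPM each in any library.

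Positions, transcripts and exon overlaps come from GENCODE M21, on the build of mm10. Near-identical transcripts were those with at least 95% identity over 100 bases. Tfh and Tn libraries with the same number in their labels were taken as from the same mouse, so mouse was a replicate block in an alternative fit. For Tfh against Tn and the interaction this was edgeR with a term for each mouse. For TC against B6 it was limma voom (limma 3.58.1) with a correlation of 0.225 between libraries of 1 mouse. Deviations of paired libraries from the group means correlated at 0.04 to 0.299 over genes. Of 14 libraries, 12 had their highest correlation with the other library of that mouse. The fit was tested on simulated data. Alternatives were DESeq2 1.42.0, RLE size factors, library totals, TMM without ribosomal, receptor and mitochondrial genes, a filter at 50 counts or none, only the groups compared, the block and each library left out; the legacy quasi-likelihood was added after seeing the data. Sequencing batch is not in the labels used here.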

Additional observations from a re-analysis of the deposited data

How the results depend on the processing

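No called change of a member reversed its direction under any alternative tried. Of 440 member results under the alternatives other than leaving out a library, 436 kept their side of the threshold, and of 700 with 1 library left out, 688 did; the exceptions are named with their genes above. The count of members lower in TC was 9 under each alternative that kept all libraries, and 8 or 9 with 1 left out, in both cell types. The count of members higher in B6 Tfh than in B6 Tn was 5, and 3 to 5 with 1 library left out, the 3 being reached without B6 Tn replicate 4. Library totals in place of TMM raised the median log2 fold change of all genes in Tfh over Tn by 0.109 in TC and 0.133 in B6, and the share of calls that were higher was 61.3 and 65.5%, against 51.0 and 52.6% with TMM. With library totals, the median log2 fold change of the peroxisomal list in Tfh over Tn was 0.05 in TC and 0.05 in B6, against -0.05 and -0.09 with TMM, and that of the regulators in B6 was 0.06, against -0.07. Over all genes, the interaction calls were 116 higher and 166 lower, and 269 and 266 with DESeq2; with the replicate block, which uses the pairing of Tfh and Tn by mouse, they were 297 and 415. With 1 library left out they ran from 60 to 144 higher and from 74 to 171 lower. The cause was not tested. The block changed the call of Cpt1a in TC and of no other member. Groups of 3 and 4 mice limit what could be called for Cpt1a, whose spread between mice was widest.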

Other observations

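Cpt1a had the widest spread between mice of a group, and the highest mouse was the same one in both cell types. In TC, mouse 1 was the highest of the 3 in both cell types (107 CPM in Tfh and 85.7 CPM in Tn), and in B6, mouse 2 was the highest of the 4 in both (161 CPM in Tfh and 164 CPM in Tn). Acadm had the narrowest spread of the 10 in TC Tfh, with a coefficient of variation of 0.141% in TC Tfh and 1.01% in TC Tn, against 4.23% in B6 Tfh and 3.26% in B6 Tn. These are values of 3 and 4 libraries, with no test. Acadm had 563 to 663 counts per TC Tfh library, where counting noise alone is wider than 0.141%. The narrow spread therefore says nothing about control of the gene.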
